A study of Gallus gallus with 24 samples.

Results

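Hepatic transcript ratios of 7 genes of de novo fatty acid synthesis were examined in growing fat line (FL) and lean line (LL) chickens. The genes were ACLY, SLC25A1, ACSS2, ACACA, FASN, THRSP and PGD, and they were found by their symbol in the probe annotation of the array. Of 6428 genes with a symbol, these 7 were represented by 15 of the 19200 probes, 6 of them by more than 1 probe and ACACA by a single probe. All 15 probes had a value on all 24 arrays, and 7 of 7 genes passed the filter of at least 3 values among the 4 arrays of each age.

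De novo lipogenesis turns carbohydrate into fatty acids in the cytosol, and in birds the liver is its main site. Citrate leaves the mitochondrion through the carrier SLC25A1 and is split by ATP citrate lyase (ACLY) into oxaloacetate and acetyl-CoA, while acetyl-CoA synthetase (ACSS2) makes acetyl-CoA from acetate. Acetyl-CoA carboxylase (ACACA) forms malonyl-CoA in the committed step, and fatty acid synthase (FASN) builds palmitate from it with NADPH as reductant. Phosphogluconate dehydrogenase (PGD), an enzyme of the pentose phosphate pathway, supplies NADPH, and thyroid hormone responsive Spot 14 protein (THRSP) is a nuclear protein known from rodents to promote expression of lipogenic enzymes.

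Liver RNA of an FL bird and an LL bird of the same age was compared on each of the 24 arrays, which carry spotted cDNA probes. Both lines are broilers under a standard growth protocol, and they came from 7 generations of divergent selection, FL for high and LL for low abdominal fat weight. There were 4 arrays at each of 6 ages, every other wk from 1 to 11 wk. The FL sample was in channel 1 on replicates 1 and 3 of each age and in channel 2 on replicates 2 and 4. The labels name 4 biological replicates per genotype and age and give no sex, so p-values measure the spread between these pairs of birds. In whole liver, fewer cells of a type and less RNA per cell cannot be told apart. Since only ratios were deposited, levels in liver and the presence of hepatocyte markers could not be checked, and no gene's level is set against another's.

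The sources used here state neither which channel is the numerator of the deposited ratio nor whether arrays with exchanged dyes were turned before deposit. Each ratio was therefore split by a linear model into a turned part, which changes sign when the dyes are exchanged, and a common profile, which does not. A positive turned value means FL over LL only under the assumption that the ratio is channel 2 over channel 1, so values are given by sign and no genotype is called higher. If the columns had been turned before deposit, the comparison of the lines would be in the values as deposited, and this second reading is given beside the first. The log base is not given in those sources, so values were read as log2 ratios, and each fold size below rests on that assumption. An error after ± is 1 standard error (SE) from the model, and a gene was called at a limma adjusted p below 0.05 over all 14855 features tested.

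Between 18795 and 18970 spots had a value on an array. The median log2 ratio lay from -0.02 to 0.03 on 23 arrays and was 0.33 on 7 wk replicate 1, which was not centred. The profile of 1 wk replicate 4 correlated under -0.3 with 4 of the 11 arrays of the same dye orientation, so its direction was not settled, and 1 wk results are given with its sign turned as well.

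As gene means, FASN and ACACA varied most between arrays, with SDs of 0.530 and 0.518 over the 24 arrays. The SD of FASN probe 31.13.10 was 1.01, which ranked 14 among 18969 probes, against a median SD of 0.180. Its deposited ratios ran from -2.43 to 2.34, or from 5.39-fold in one direction to 5.07-fold in the other. THRSP probe 22.7.15 had an SD of 0.740 (rank 141), ACACA 0.518 (rank 647) and ACLY probe 28.12.15 0.501 (rank 700). These probes thus differed widely between pairs of birds, whichever way the ratio ran. PGD probe 33.7.16 was close to the median probe with an SD of 0.171.

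**Figure D1:**
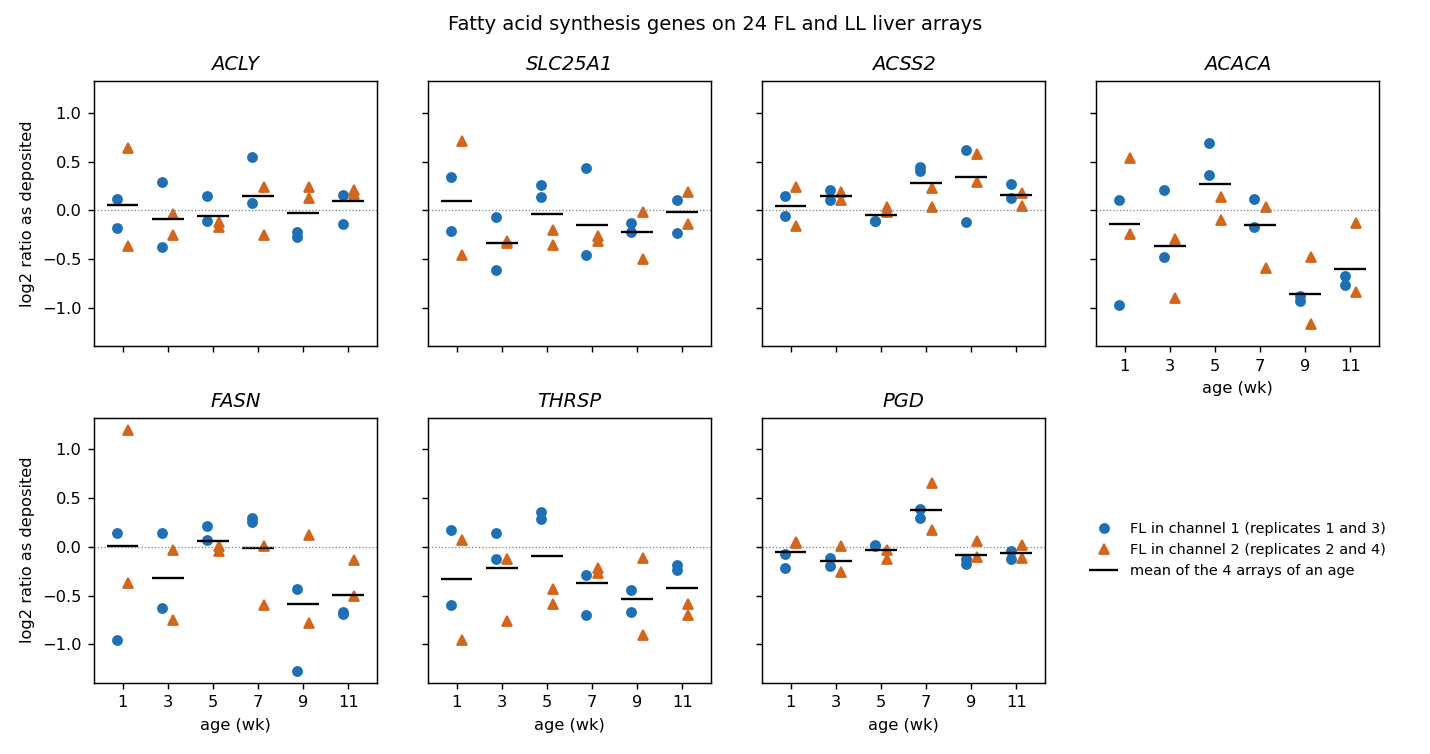
Deposited log2 ratio (vertical axis) of each of the 7 genes, averaged over its probes, on the 24 arrays by age in wk (horizontal axis). Circles are arrays with FL in channel 1, triangles arrays with FL in channel 2, and black lines the mean of the 4 arrays of an age. All 4 PGD values at 7 wk lie above those at every other age, and all 4 ACACA values are below 0 at 9 and at 11 wk.

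FASN, the synthase itself, gave means over its 2 probes of -0.96, -0.37, 0.14 and 1.20 in replicates 1 to 4 at 1 wk as deposited. The values were 0.14, -0.04, -0.63 and -0.75 at 3 wk. They were 0.21, -0.04, 0.07 and 0.01 at 5 wk. Replicates of 1 age thus lay far apart at 1 and 3 wk and close together at 5 wk, and 1 wk replicate 4 was the highest of the 24 arrays. At 7 wk the FASN values were 0.29, -0.60, 0.26 and 0.01. At 9 wk they were -1.27, -0.78, -0.43 and 0.12. At 11 wk all 4 arrays were negative, with -0.69, -0.50, -0.66 and -0.14. At 9 wk 3 of 4 arrays were negative, and the ranges of all ages overlapped with that of 1 wk.

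ACACA, the carboxylase, had deposited values of -0.98, -0.24, 0.11 and 0.54 at 1 wk. At 3 wk they were 0.20, -0.30, -0.48 and -0.89. At 5 wk they were 0.69, 0.14, 0.36 and -0.10. Only 5 wk replicate 4 was negative at that age, whereas both signs occurred evenly at 1 wk. At 7 wk the ACACA values were 0.11, -0.59, -0.17 and 0.04. At 9 wk they were -0.93, -1.16, -0.88 and -0.48. At 11 wk they were -0.77, -0.84, -0.68 and -0.13. All 8 values at 9 and 11 wk were negative, in both dye orientations, and none of the 4 at 9 wk overlapped with those of 5 wk.

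Among the suppliers of acetyl-CoA, ACLY ranged from -0.38 to 0.63 with a median of 0.02 over the 24 arrays and was negative on 12 of them. SLC25A1 ranged from -0.61 to 0.71 with a median of -0.21 and was negative on 17. ACSS2 ranged from -0.16 to 0.62 with a median of 0.14 and was negative on 6. The acetate-activating enzyme thus leaned to positive deposited ratios and the citrate carrier to negative ones, while ACLY was evenly split. For ACLY and SLC25A1 the highest value was that of 1 wk replicate 4, and for ACSS2 that array was the lowest.

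THRSP, the regulator, was negative on 19 of 24 arrays as deposited. At 1 wk its values were -0.60, -0.95, 0.18 and 0.07 in replicates 1 to 4, and at 3 wk they were -0.12, -0.13, 0.14 and -0.76. Its values at 5 wk were 0.29, -0.43, 0.36 and -0.59. Both 5 wk arrays with FL in channel 1 were thus positive and both with FL in channel 2 negative. At 7 wk they were -0.29, -0.27, -0.70 and -0.22. At 9 wk they were -0.67, -0.91, -0.44 and -0.11. At 11 wk they were -0.24, -0.58, -0.19 and -0.70. From 7 wk on, every THRSP mean over its probes was negative, in both dye orientations, and these ranges overlapped with those of the younger ages. Single probes were not all negative there. Probe 22.7.15 was at 0.59 on 9 wk replicate 4 and at 0.03 and 0.35 on 11 wk replicates 1 and 3. Probe 45.12.5 was at 0.11 on 7 wk replicate 2 and at 0.31 on 9 wk replicate 1.

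PGD, which supplies NADPH, varied little outside 7 wk, where its 20 values lay between -0.26 and 0.06. At 7 wk they were 0.39, 0.65, 0.29 and 0.18 in replicates 1 to 4. As deposited, the 4 values of 7 wk did not overlap with those of any other age, and they were positive in both dye orientations. This held for the mean of the probes. At 7 wk probe 1.1.7 lay between 0.33 and 0.81, whereas 33.7.16 was at 0.36, 0.49, -0.05 and 0.02 and overlapped with other ages. The separation rested partly on the uncentred array, since with each array centred on its median 7 wk replicate 1 was at 0.06, below 1 wk replicate 4 at 0.08, and the other 3 arrays of 7 wk stayed higher, at 0.16 to 0.64.

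**Figure D2:**
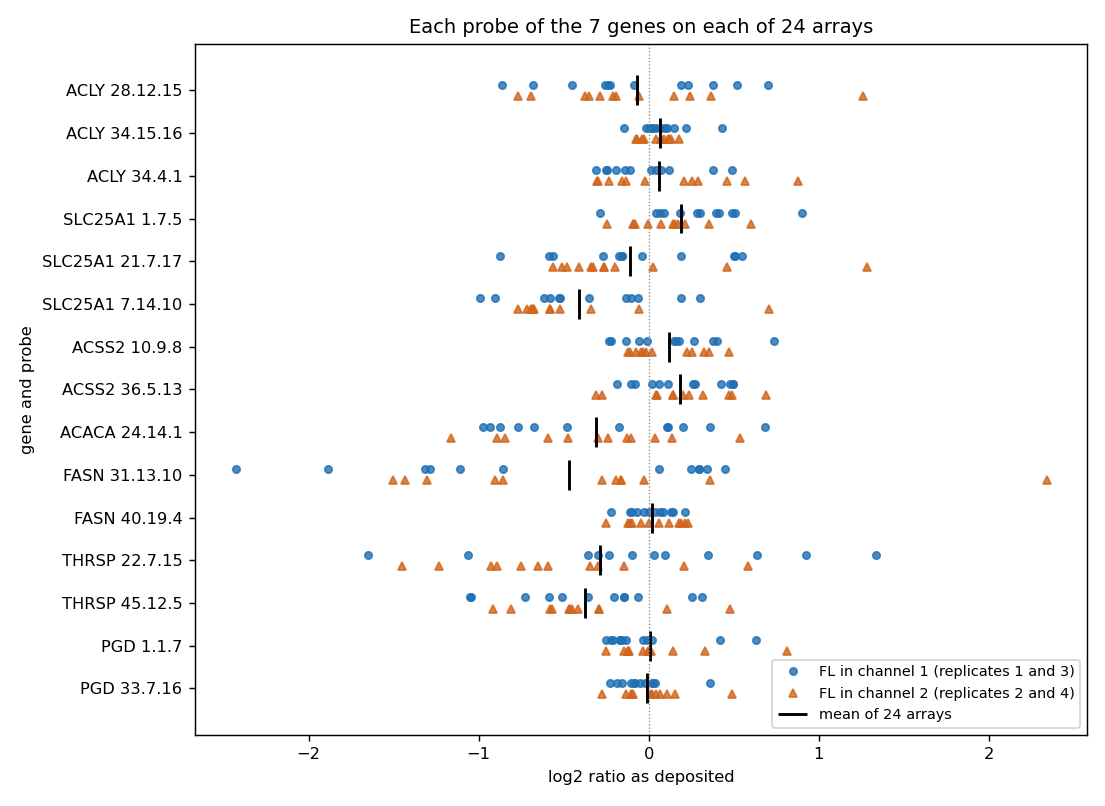
Deposited log2 ratio (horizontal axis) of each of the 15 probes of the 7 genes (vertical axis) on each of the 24 arrays. Circles are arrays with FL in channel 1, triangles arrays with FL in channel 2, and the black bar is the mean of 24 arrays. FASN 31.13.10 spans -2.43 to 2.34, while the other FASN probe stays between -0.25 and 0.23.

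Probes of the same gene did not always give the same ratio, which bears on every gene mean above. Of 10 pairs of probes of the same gene, 3 passed a permutation test after adjustment over the 105 pairs of the 15 probes. The closest were SLC25A1 probes 21.7.17 and 7.14.10 (r = 0.902, Spearman's rho = 0.726, adjusted p = 0.000525 and 0.00315 by permutation, n = 24 arrays). PGD probes 1.1.7 and 33.7.16 had r = 0.698 and rho = 0.636, and ACLY probes 28.12.15 and 34.4.1 r = 0.688 and rho = 0.817 (adjusted p from 0.00105 to 0.0177). Without the 2 arrays farthest on the first probe these pairs had r = 0.816, 0.690 and 0.589, and the adjusted permutation p of the ACLY pair was then 0.0647. These probes thus followed each other from pair to pair of birds, the ACLY pair less firmly.

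Other probes went their own way. FASN probe 40.19.4 stayed between -0.25 and 0.23 on arrays on which 31.13.10 moved several-fold, the 2 had r = 0.303 (adjusted permutation p = 0.334), and they shared their sign on 14 of 24 arrays. The mean of FASN therefore carries about the pattern of probe 31.13.10 at a reduced size. SLC25A1 probe 1.7.5 was positive on 18 of 24 arrays, whereas 7.14.10 was negative on 21. ACLY probe 34.15.16 stayed between -0.15 and 0.43 and had r = 0.321 and 0.310 with the other probes of the gene. The probes of THRSP had r = -0.260, on the side of opposite movement, with an adjusted permutation p of 0.463, and shared their sign on 14 arrays. In the reference annotation THRSP lies next to a paralogue, THRSPB, for which 0 probes carry the symbol, and which of the paralogues a THRSP probe detects was not tested.

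The main comparison asked whether the line ratio of these genes differed from 1 over all ages. None of the 7 genes was called, and the largest turned mean was that of THRSP, at -0.14 ± 0.07 (n = 24 arrays; limma unadjusted p = 0.0486, adjusted p = 1.00). FASN had 0.07 ± 0.10, SLC25A1 -0.06 ± 0.07, PGD 0.03 ± 0.05 and ACACA -0.03 ± 0.10. ACLY had 0.02 ± 0.05 and ACSS2 -0.01 ± 0.04, so that 6 of 7 means were smaller than their SE. Of all features 0% were called by limma (496 had an unadjusted p below 0.05), and probe by probe it was again 0% of 18963. The median of the 7 turned means was -0.01, as was that of all features.

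If the columns were not turned before deposit, the intervals show what size of line difference could have been missed. They do not bound the line difference of the second reading, which is another quantity, the mean as deposited. In that reading the means of FASN (-0.22, not called, limma adjusted p = 0.0685), ACACA (-0.31), THRSP (-0.33) and ACSS2 (0.15) lay outside the intervals given here. Those of ACLY, SLC25A1 and PGD lay inside. The 95% interval of the turned mean ran from -0.14 to 0.28 for FASN and from -0.24 to 0.19 for ACACA, so that its far end was 1.22-fold and 1.18-fold. For THRSP it ran from -0.27 to -0.00. The suppliers were bounded more closely, with -0.09 to 0.13 for ACLY, -0.20 to 0.08 for SLC25A1 and -0.10 to 0.08 for ACSS2. PGD was bounded between -0.06 and 0.12. These intervals hold for the gene means, and that of a single probe was wider where it varied more, with 0.13 ± 0.19 for FASN 31.13.10 against 0.01 ± 0.03 for 40.19.4.

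**Figure D3:**
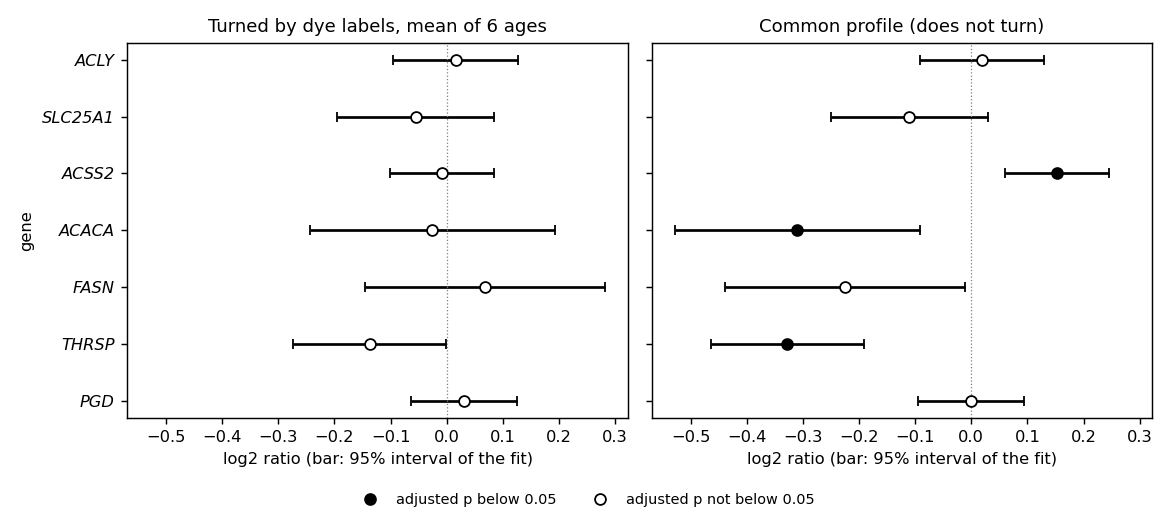
Estimates of the limma model for the 7 genes (vertical axis) as log2 ratios (horizontal axis) with 95% intervals, the turned mean of the 6 ages in the left panel and the common profile in the right panel. Filled circles mark an adjusted p below 0.05, which 0 genes reach on the left and ACSS2, ACACA and THRSP reach on the right.

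Age by age, none of the 7 genes was called at any age. At 1 wk the turned value of FASN was 0.41 ± 0.25 and that of ACACA 0.29 ± 0.26 (limma adjusted p = 1.00 for both), and 0% of all features were called (69 had an unadjusted p below 0.05). With the sign of 1 wk replicate 4 turned, FASN was -0.31, ACACA -0.14, SLC25A1 -0.40, ACLY -0.23 and ACSS2 0.16, all opposite in sign to the values with its labelled dyes, and again 0 members were called. Without that array FASN was at 0.05 and ACACA at 0.09, both still positive, while ACLY at -0.10, SLC25A1 at -0.25 and ACSS2 at 0.11 had changed sign. The sign of these 5 genes at 1 wk thus depended on the direction of that array, and that of 3 of them on its presence.

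At 3 wk ACACA and THRSP were both at -0.23 and the other 5 genes lay between -0.07 and 0.02, and 0% of features were called (123 had an unadjusted p below 0.05). At 5 wk THRSP reached -0.42 ± 0.16 (limma unadjusted p = 0.0171, adjusted p = 1.00), ACACA -0.25 ± 0.26 and SLC25A1 -0.24 ± 0.16, and 0% of features were called (174 had an unadjusted p below 0.05). When the 4 arrays of 5 wk were fitted alone, THRSP was called with a limma adjusted p of 0.0138, against 0.902% of features in that fit. The 2 THRSP probes were at -0.61 ± 0.32 and -0.22 ± 0.18 at 5 wk, both negative.

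At 7 wk 1.10% of features were called, all of them negative, and 2762 features had an unadjusted p below 0.05. The median of all features was -0.08 there, and with every array centred on its median it was -0.01, with 6 features called, 5 negative and 1 positive. FASN was at -0.28 ± 0.25 (adjusted p = 0.548), ACLY at -0.16 ± 0.13 and ACSS2 at -0.15 ± 0.11, with a median of -0.14 over the 7 genes. PGD was at 0.04 ± 0.11 at 7 wk, so the high PGD ratios of that age did not turn with the dyes.

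At 9 wk 0.00673% of features were called, which is 1 feature outside the 7 genes, and 483 had an unadjusted p below 0.05. The largest turned values of the 7 genes at 9 wk were those of FASN, 0.26 ± 0.25, and ACLY, 0.21 ± 0.13 (limma adjusted p = 1.00 for both). At 11 wk 0% of features were called (452 had an unadjusted p below 0.05), and THRSP was at -0.21 ± 0.16 and FASN at 0.18 ± 0.25. Thus FASN had positive turned estimates at 1, 9 and 11 wk and negative ones at 3, 5 and 7 wk, each within 2 SE of 0. A difference between ages was not called for any of the 7 genes (interaction, 0% of features, 588 below 0.05 unadjusted), nor was a linear trend (0% of features, 234). The trend of FASN amounted to -0.05 ± 0.30 and that of ACLY to 0.11 ± 0.16 from 1 to 11 wk.

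**Figure D4:**
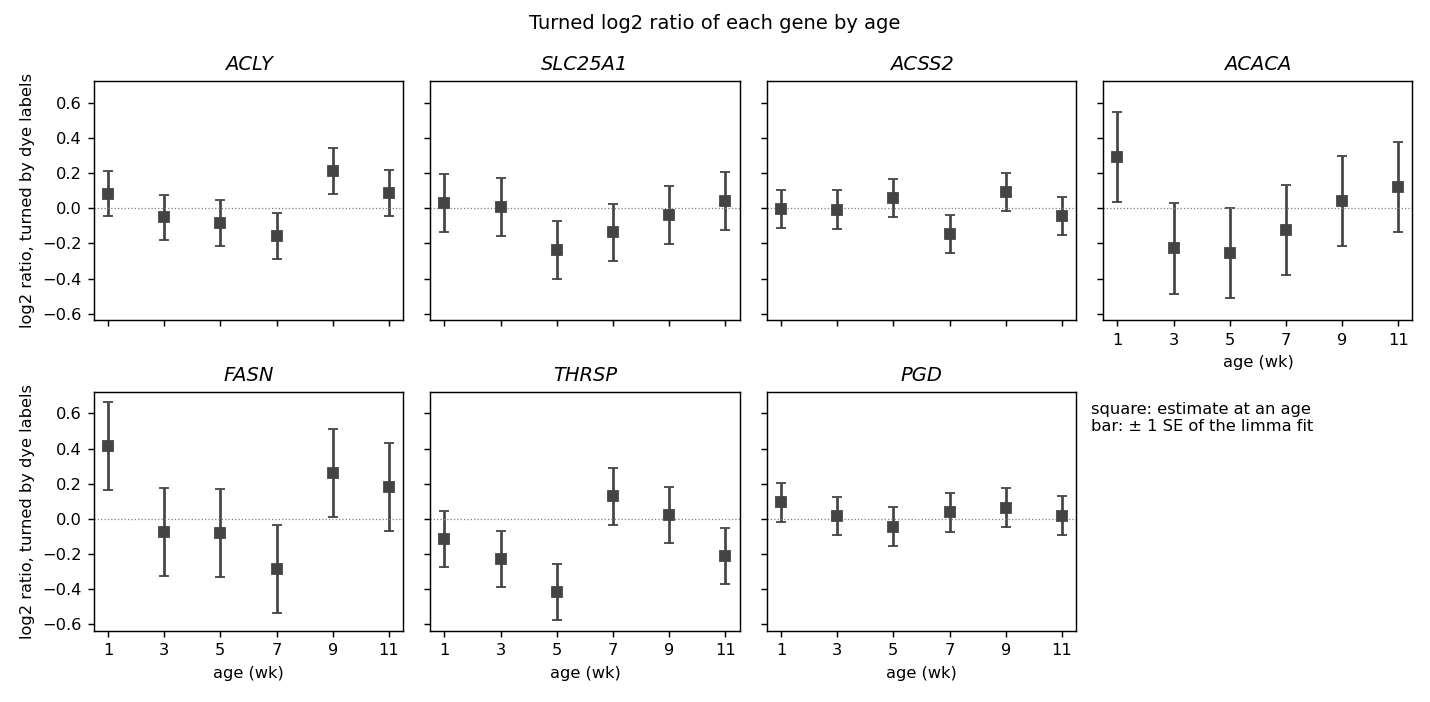
Turned log2 ratio (vertical axis) of each of the 7 genes by age in wk (horizontal axis), squares giving the estimate and bars 1 SE of the limma fit. No estimate was called, and the largest are 0.41 for FASN at 1 wk and -0.42 for THRSP at 5 wk.

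The common profile gave larger values than the turned part for several of the genes. If the columns were not turned before deposit, this part does not hold the line difference, and what it does hold was not tested. THRSP had a common value of -0.33 ± 0.07 (limma adjusted p = 0.000858), ACACA -0.31 ± 0.10 (adjusted p = 0.0257) and ACSS2 0.15 ± 0.04 (adjusted p = 0.0113). The value of ACACA amounted to 1.24-fold in size. FASN, at -0.22 ± 0.10, did not pass the test (adjusted p = 0.0897), nor did SLC25A1 at -0.11 ± 0.07 (adjusted p = 0.202). ACLY had 0.02 ± 0.05 and PGD -0.00 ± 0.05. Thus 3 of 7 genes were called, 2 negative and 1 positive, against 37.6% of all features, of which 13.5% were negative and 24.2% positive. The share of the 7 genes was thus close to that of all features.

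Probe by probe, 5 of the 15 probes (33.3%) were called in the common profile, from 4 of the genes, against 38.2% of all probes. SLC25A1 probes were called with opposite signs, 7.14.10 at -0.41 ± 0.08 and 1.7.5 at 0.19 ± 0.06, which the mean of the gene hid. THRSP probe 45.12.5 was called at -0.37 ± 0.07, and 22.7.15 was at -0.28 ± 0.13 (limma adjusted p = 0.0883). FASN 31.13.10 was the other large probe, with a mean of -0.47 over 24 arrays and negative values on 16 of them, and was not called (limma adjusted p = 0.0576). ACSS2 probe 36.5.13 was called at 0.19 ± 0.06, and 10.9.8 at 0.12 ± 0.05 was not (limma adjusted p = 0.0633). Without 1 wk replicate 4, FASN at -0.28 (adjusted p = 0.0180) and SLC25A1 at -0.16 (adjusted p = 0.0281) were called as well, so that 5 of 7 genes passed, against 39.6% of features in that fit. With arrays weighted by their quality ACACA was at -0.23 and not called (adjusted p = 0.0776), whereas SLC25A1 at -0.14 was (adjusted p = 0.0319), so that the count stayed at 3, against 46.6% of features. With a replicate block FASN at -0.22 was called in addition (adjusted p = 0.0391), against 47.6% of features. The correlation within the block was negative, at -0.057, and the SE of FASN was 0.087 with the block against 0.102 without it.

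Marker lists of liver cells and of other cells were read against the same 37.6% of all features called in the common profile, 24.2% positive and 13.5% negative. Of the hepatocyte markers 3 of 8 were called, all negative, with the plasma protein genes TTR at -0.59, APOA1 at -0.23 and TF at -0.20. Of the adipocyte markers 3 of 6 were called, all positive, with RBP7 at 0.23, FABP4 at 0.18 and PLIN1 at 0.11. Of 8 macrophage markers 2 were positive and 2 negative, and of 3 erythrocyte markers 2 were positive, SLC4A1 at 0.17 and HBA1 at 0.13. The part of these cells in the values of the 7 genes was not tested. In the turned mean over ages 0 markers of any of these cells were called, and PPARG came nearest by unadjusted p (-0.06, adjusted p = 1.00 by limma). In the second reading over all ages 5 of 8 hepatocyte markers were called, all negative, and 3 of 6 adipocyte markers, all positive. Of macrophage markers 2 were positive and 2 negative, and of 3 erythrocyte markers 2 were positive, against 41.8% of all features.

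When the ages were compared as deposited, PGD was the only one of the 7 genes called (limma moderated F test, adjusted p = 0.00806), against 5.70% of features. Its mean at 7 wk was 0.38 ± 0.20 (SD, n = 4), and its means at the other ages lay between -0.14 and -0.03. PGD probe 1.1.7 was called (adjusted p = 0.000712) and 33.7.16 was not (adjusted p = 0.242). The uncentred array was a 7 wk array, and without it PGD was still called (adjusted p = 0.0139, against 9.63% of features), whereas with all arrays centred on their median the adjusted p was 0.0532 (5.24% of features called). ACACA, whose means ran from 0.27 ± 0.34 at 5 wk to -0.86 ± 0.28 at 9 wk (SD, n = 4), had an adjusted p of 0.0851. Without 1 wk replicate 1 ACACA was called (adjusted p = 0.0264, against 4.63% of features), and without 9 wk replicate 3 ACSS2 was called (adjusted p = 0.0335, against 4.11%). Among single probes, of which 6.34% were called, the flat FASN probe 40.19.4 differed between ages (adjusted p = 0.00485), with a mean of 0.20 at 7 wk and -0.13 at 11 wk.

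If the columns had been turned before deposit, the comparison of the lines would give other calls. Over all ages ACACA (-0.31 ± 0.08, limma adjusted p = 0.00304), THRSP (-0.33 ± 0.07, adjusted p = 0.00123) and ACSS2 (0.15 ± 0.04, adjusted p = 0.00197) were called in this reading, against 41.8% of all features. These means are the common values of the same genes given above, read in another way, and not a separate result. At 7 wk PGD (0.38 ± 0.06, adjusted p = 0.000811) and ACSS2 (0.28 ± 0.09, adjusted p = 0.0275) were called, against 23.8%. That age includes the uncentred 7 wk replicate 1, with a median of 0.33. The calls by age in this reading were not repeated with centred arrays. By single probes at 7 wk, PGD 1.1.7 and ACSS2 36.5.13 were called. PGD 33.7.16 and ACSS2 10.9.8 were not (limma adjusted p = 0.0501 and 0.331). Over all ages THRSP 45.12.5 was called and 22.7.15 was not (limma adjusted p = 0.112). At 9 wk ACACA (-0.86 ± 0.19, adjusted p = 0.00306), ACSS2 (0.34 ± 0.09, adjusted p = 0.0102) and THRSP (-0.53 ± 0.18, adjusted p = 0.0458) were called, against 16.2%. Neither THRSP probe was called alone at 9 wk (limma adjusted p = 0.323 for 22.7.15 and 0.0691 for 45.12.5), while both ACSS2 probes were. At 11 wk ACACA alone was called (-0.60 ± 0.19, adjusted p = 0.0449), against 10.5%. At 1, 3 and 5 wk 0 of the 7 genes were called, against 0.114%, 6.43% and 0.0539% of features. In this reading the carboxylase and the acetate-activating enzyme thus had opposite signs, and calls by age were made at 7, 9 and 11 wk only. The difference between ages is here the same F test as that of the ages as deposited above. It called PGD alone, against 5.70% of features, and with centred arrays the limma adjusted p of PGD was 0.0532.

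The genes were next compared with each other across the 24 arrays, each of which is, by the labels, a different pair of birds. All genes of an array share its RNA samples and labelling, so the rank of each partner among 14683 features is given with the closest pairs. Of the 21 pairs of genes 4 passed a permutation test of Pearson's r after Benjamini-Hochberg adjustment over the 21. FASN and ACACA, which catalyse successive steps, were the closest, with r = 0.849 and rho = 0.870 (adjusted permutation p = 0.00021 for both, unadjusted p = 1e-05, the smallest that 100000 resamples can give). They had the same sign on 20 of 24 arrays. Without the 2 arrays farthest on FASN r was 0.853, and with any array left out it stayed between 0.836 and 0.869. Within the 12 arrays with FL in channel 1 r was 0.873 and within the 12 with FL in channel 2 it was 0.859 (adjusted permutation p = 0.0149 and 0.00462). The relation thus held in each dye orientation and without the farthest arrays.

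Of 14683 features 5.52% had r over 0.5 with FASN, and ACACA had rank 5 among them. The relation was closer for FASN probe 31.13.10, which had r = 0.816 with ACACA and the same sign on 20 arrays, while probe 40.19.4 had r = 0.550 (adjusted permutation p = 0.000525 and 0.0344 over the 105 probe pairs, rho = 0.802 and 0.521). For the latter pair rho did not pass (adjusted permutation p = 0.0717), nor did r without the 2 farthest arrays (r = 0.453, adjusted permutation p = 0.233). In the residuals of the model that pair had r = 0.614 (adjusted permutation p = 0.0109, with the limit on residuals given below).

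The other 3 pairs were weaker. FASN and ACLY had r = 0.675 and rho = 0.601 (adjusted permutation p = 0.00252 and 0.022), ACLY and SLC25A1 r = 0.662 and rho = 0.516 (0.00343 and 0.0457 in the same test), and ACACA and THRSP r = 0.592 and rho = 0.570 (0.0133 and 0.022). By r, ACLY had rank 127 with FASN, SLC25A1 rank 171 with ACLY and THRSP rank 381 with ACACA among the 14683 features. Of these features 6.15% had r over 0.5 with ACACA, 7.30% with ACLY and 10.3% with SLC25A1. By single probes, FASN 31.13.10 passed with ACLY 28.12.15 and 34.4.1 (r = 0.666 and 0.604). FASN 40.19.4 did not (r = -0.0855 and -0.230), and ACLY 34.15.16 passed with neither FASN probe. ACLY 28.12.15 passed with SLC25A1 21.7.17 and 7.14.10 (r = 0.704 and 0.722), and the other ACLY probes passed with neither. Neither THRSP probe, 22.7.15 or 45.12.5, passed with ACACA (r = 0.423 and 0.318, adjusted permutation p = 0.159 and 0.328 over all pairs of probes). With any 1 array left out, 1 wk replicate 4 included, FASN and ACLY kept r at 0.552 or more and ACLY and SLC25A1 at 0.542 or more, and both passed each time. ACACA and THRSP did not pass without 5 wk replicate 1 (r = 0.525, adjusted permutation p = 0.0577) and passed without each other array. Without the 2 farthest arrays r was 0.535, 0.410 and 0.459, none of which passed (adjusted permutation p = 0.0781, 0.175 and 0.163). Within the dye orientations the 3 pairs had r between 0.537 and 0.694, and none passed in either (adjusted permutation p from 0.0809 to 0.212, 12 arrays each). All 3 were thus positive in both orientations and did not pass without the 2 farthest arrays, and 1 wk replicate 4 was the highest for FASN, ACLY and SLC25A1. ACSS2 had negative r, at -0.366 with FASN and -0.431 with ACACA, which did not pass (adjusted permutation p = 0.131 and 0.0931). The r of FASN and ACSS2 was -0.0051 without the 2 arrays farthest on FASN (adjusted permutation p = 0.982), so it rested on those arrays. On 16 of 24 arrays FASN and ACSS2 had opposite signs, where FASN was negative on 14 and ACSS2 positive on 18. ACACA and ACSS2 did pass with arrays centred on their median (r = -0.508, adjusted permutation p = 0.0451) or without 7 wk replicate 1 (-0.514, 0.0399). Without 7 wk replicate 1 and 11 wk replicate 4, left out together, they passed at -0.520, and SLC25A1 and ACSS2 at -0.527 (adjusted permutation p = 0.047 for both). Without the 2 arrays farthest on ACACA, its r with ACSS2 was -0.3465 and did not pass (adjusted permutation p = 0.242).

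**Figure D5:**
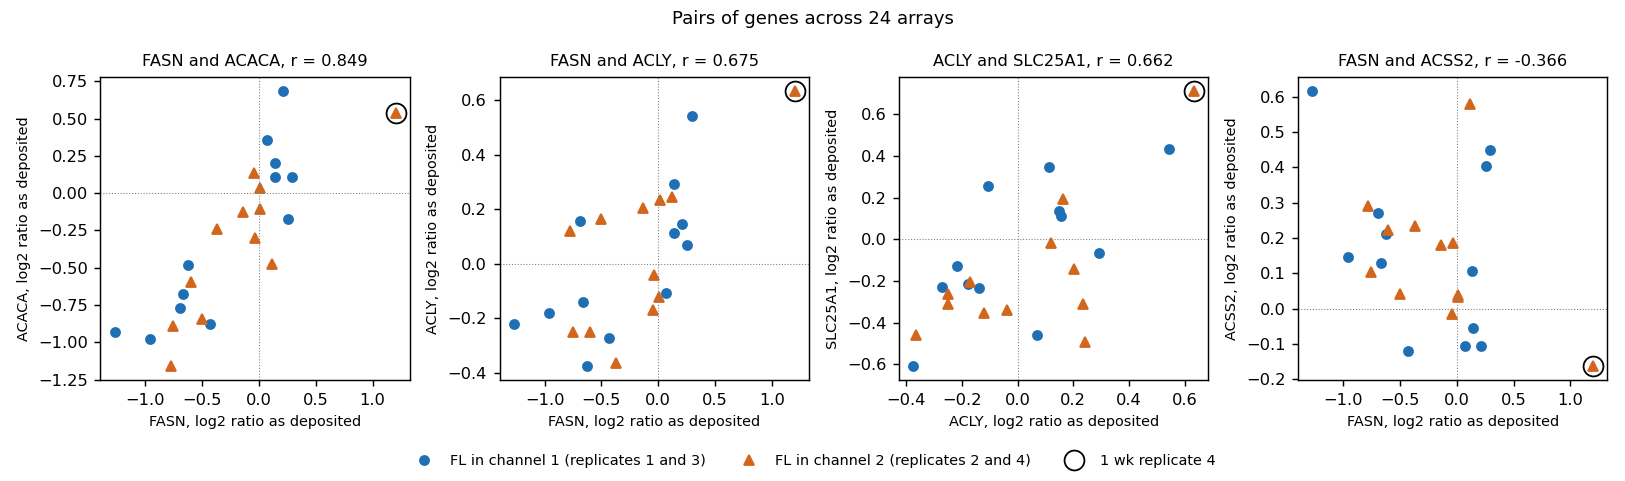
Deposited log2 ratios of 4 pairs of genes against each other, one point per array, with circles for FL in channel 1, triangles for FL in channel 2 and a ring around 1 wk replicate 4. FASN and ACACA lie along a rising band in both orientations (r = 0.849), while FASN and ACLY (r = 0.675) and ACLY and SLC25A1 (r = 0.662) have the ringed array at their far end. FASN and ACSS2 have r = -0.366, which did not pass and was -0.0051 without the 2 arrays farthest on FASN.

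In the residuals of the model with the dye sign 7 of 21 pairs passed. The permutations treated the 24 residuals as free values, although the fit ties them together. Their p-values, and those of the other sets of residuals below, are therefore too small, to an extent that was not tested. FASN and ACACA had a residual r of 0.871, FASN and THRSP 0.759, ACLY and SLC25A1 0.713, ACACA and THRSP 0.710 and FASN and ACLY 0.618 (adjusted permutation p from 0.00021 to 0.00521). Among 14683 features, ACACA had rank 4, THRSP rank 58 and ACLY rank 459 by residual r with FASN. SLC25A1 had rank 167 with ACLY, and THRSP rank 150 with ACACA. The 95th percentile of residual r over all features was 0.563 for FASN, 0.570 for ACACA and 0.584 for ACLY. ACSS2 was negative with FASN at -0.548 and with ACACA at -0.509 (adjusted permutation p = 0.0202 and 0.0287). Its ranks from the highest residual r were 14234 with FASN and 13853 with ACACA, so other features were more negative. Without 1 wk replicate 4, a check added after the data were seen, 4 of 21 pairs passed. FASN and THRSP then had 0.714, while FASN and ACLY at 0.509 (adjusted permutation p = 0.0534), FASN and ACSS2 at -0.469 and ACACA and ACSS2 at -0.466 (adjusted permutation p = 0.0681 for both) no longer passed. Residuals from the age means, which are those of the second reading and were also added after the data were seen, gave 5 pairs. They were FASN with ACACA (0.847), FASN with ACLY (0.795), ACACA with ACLY (0.716), ACLY with SLC25A1 (0.703) and ACACA with THRSP (0.546, adjusted permutation p = 0.0242). FASN and THRSP had 0.423 and FASN and ACSS2 -0.255 there, which did not pass (adjusted permutation p = 0.0911 and 0.299). Against the mean of the other 6 genes the r of the model residuals was 0.851 for FASN, 0.732 for ACACA, 0.678 for THRSP, 0.643 for ACLY, 0.456 for SLC25A1, 0.287 for PGD and -0.484 for ACSS2, as a description over 24 arrays. Thus 3 pairs passed in every set of residuals as gene means, FASN with ACACA, THRSP with ACACA and ACLY with SLC25A1. Those of FASN with THRSP, ACLY and ACSS2 passed in some sets only. By single probes, THRSP 22.7.15 and 45.12.5 had model residual r of 0.463 and 0.436 with ACACA. Neither passed (adjusted permutation p = 0.089 and 0.104 over all pairs of probes). Both FASN probes passed with ACACA. ACLY 28.12.15 passed with SLC25A1 21.7.17 and 7.14.10, and no other pair of ACLY and SLC25A1 probes passed.

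The named genes whose residuals were most like the mean of the 7 were WASF2 (r = 0.916), XPR1 (0.869), SPRYD7 (0.858), CHP1 (0.857) and HSD17B13 (0.848), among 14677 features over 24 arrays. HSD17B13 encodes a lipid droplet protein of liver in mammals, XPR1 a phosphate exporter and WASF2 an actin regulator.

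Other genes of the pathway were not called in the turned part either. In the mean over ages 0 of 3 measured genes of NADPH supply, 0 of 9 of citrate and pyruvate supply, 0 of 18 regulators, 0 of 5 mitochondrial enzymes of related steps and 0 of 9 users of the product were called. SLC25A10, the mitochondrial dicarboxylate carrier, came nearest by unadjusted p in these lists (-0.05 ± 0.02, limma adjusted p = 1.00). Medians of the lists lay between -0.02 and 0.02, against -0.01 for all features.

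In the common profile 6 of 9 genes of citrate and pyruvate supply were called, 3 in each direction, against the 37.6% of all features. Among them were ACO1, the cytosolic aconitase, at -0.34 ± 0.10, MPC2, a subunit of the mitochondrial pyruvate carrier, at -0.33 ± 0.07, MDH1, cytosolic malate dehydrogenase, at -0.26 ± 0.07 and PKLR, liver pyruvate kinase, at 0.16 ± 0.05. Of 18 regulators 9 were called positive and 1 negative, against 24.2% and 13.5% of all features. The largest were INSIG2, which retains SREBP precursors in the endoplasmic reticulum, at -0.20 ± 0.06, SREBF2 at 0.17 ± 0.05, thyroid hormone receptor THRB at 0.15 ± 0.03 and INSIG1 at 0.13 ± 0.04. Of 9 users of the product 3 were positive and 1 negative, with ACSL1, a long-chain acyl-CoA synthetase, at -0.49 ± 0.08, DGAT2, which completes triglyceride, at 0.14 ± 0.03, the desaturase SCD at 0.12 ± 0.04 and ELOVL1 at 0.09 ± 0.03. Of the 3 genes of NADPH supply TALDO1 was called at 0.10 ± 0.03, and of the 5 mitochondrial enzymes MECR at 0.08 ± 0.03. The regulator list had a median of 0.07, against 0.02 for all features. Between ages as deposited 2 of 9 genes of citrate and pyruvate supply were called, MDH1 and MPC2 (limma adjusted p = 0.00379 and 0.0347). Of 18 regulators 1 was called, the AMP-activated kinase subunit PRKAA1 (limma adjusted p = 0.0351). In the lists of NADPH supply, mitochondrial enzymes and users of the product 0 genes were called. The share of all features called in that test was 5.70%.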

How the data were processed

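Spotted cDNA arrays compared FL and LL liver RNA at 6 ages. The deposited table holds 1 log ratio per spot and array. The log base, ratio direction, scanner and normalization method are not given in the sources used here, and the deposited values were taken as log2, the usual scale, as an assumption. Values were used as given, with no further normalization. Genome coordinates served only to find the neighbours of THRSP in the reference gene table. Gene symbols came from the probe annotation (10601 probes), and 7 of 7 gene IDs matched the reference gene table. Probes of a gene were averaged. The number of arrays limits the precision.

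Features with at least 3 of 4 values at each age were fitted in limma 3.58.1 (R 4.3.3) with a common term and a coefficient per age that carries the dye sign. Tests were two-sided, and p-values were adjusted by Benjamini-Hochberg for 14855 features (or 18963 probes). The fit was tested on simulated data. Correlations used 100000 permutations (scipy 1.17.1, Python 3.11.15). Alternatives were centring, scaling, array weights, other probe summaries, a replicate block, each array left out and the turned reading of the columns, with the pairs of probes and 2 checks of residuals added after the data were seen. Another alternative left out 7 wk replicate 1 and 11 wk replicate 4 together. They were taken as look-alike arrays in advance, and no measure of their likeness is given here. The genes, lists and the rule for named genes (all 7 genes, up to 4 called members of a list by size, the 5 genes with the most similar residuals) were chosen with earlier results of these data known.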

Additional observations from a re-analysis of the deposited data

Results flagged for a closer look

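Of 42 groups of 4 arrays, 1 per gene and age, 2 held a value far from the others by Dixon's test, and chance alone gives about 1 in 20 such groups. ACLY in 11 wk replicate 3 was at -0.14 as deposited, while the other 3 arrays of that age lay between 0.156 and 0.204. THRSP in 7 wk replicate 3 was at -0.704, while the other 3 lay between -0.293 and -0.218. PGD differed between ages as deposited, with a limma adjusted p of 0.00806 (5.70% of features called) and its high values at 7 wk. With arrays centred on their median its limma adjusted p was 0.0532. Of its probes, 1.1.7 was called and 33.7.16 was not (limma adjusted p = 0.000712 and 0.242).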

How the results depend on the processing

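Taking the columns as already turned raised the members called from 0 to 3 for the mean over ages, against 41.8% of features. In that reading the means over ages are the same estimates as the common profile. Called were also 2 at 7 wk (23.8% of features), 3 at 9 wk (16.2%), 1 at 11 wk (10.5%) and 1 for the interaction with age (PGD, 5.70%). This reading turned the sign of ACSS2 over all ages (0.15) and at 7 wk (0.28), of ACACA at 9 wk (-0.86) and 11 wk (-0.60) and of THRSP at 9 wk (-0.53). With only the 4 arrays of the age, 1 member was called at 5 wk, against 0.902% of features. In the common profile 3 members were called, against 37.6% of features. With each array left out 3 to 5 were called, the 5 without 1 wk replicate 4, against 39.6% of features. SLC25A1 by probe 1.7.5 alone was positive and called (0.19). Between ages as deposited 1 member was called (5.70% of features), 0 with arrays centred on the median (5.24%) or centred and scaled, and 2 probe by probe (6.34% of probes). With each array left out 1 to 2 were called, the 2 without 1 wk replicate 1 (4.63% of features) or 9 wk replicate 3 (4.11%). Of the 21 pairs 4 passed, 7 on model residuals (4 without 1 wk replicate 4), 5 on residuals from the age means, 12 with columns turned by the dye labels, 1 with FL in channel 1 only, 2 with FL in channel 2 only, 1 without the 2 farthest arrays, and 3 to 6 with each array left out. The columns turned by the dye labels kept the common value, which then changes sign with the dyes. This alone adds to the size of r between genes with a common value, so the 12 are not a separate result. With a replicate block 4 members were called in the common profile, FASN in addition (-0.22, limma adjusted p = 0.0391), against 47.6% of features. The replicate numbers did not pair the arrays, since residuals of arrays of the same number had r from -0.643 to 0.46 (median -0.108, against -0.118 for other numbers). Signs changed without a call under some setting for each comparison, most often for the linear trend with age (50 of 266 values) and least often at 5 wk (8 of 273). The causes of these changes were not tested. Ratios carry no intensity, so signal over background is unknown.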
